A study of Mus musculus with 6 samples.

Results

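The genes described here are the activin and inhibin subunits Inha, Inhba and Inhbb, the secreted activin antagonists Fst and Fstl3, the growth differentiation factors Gdf11 and Gdf15, and the activin type II receptors Acvr2a and Acvr2b. They were picked as a gene family, with earlier results of these data known, and found on the array through the RefSeq accession of each probe, without a threshold on any measured value. All 9 were represented, by 11 probes, among 22910 named genes on the array, and all 9 were among the 14345 genes with enough signal to be tested. RNA came from 2D-MAOs, airway epithelial organoids of C57BL/6 mouse lung that were dissociated and replated as a flat layer, which can hold several differentiated cell types. The control group was 3 cultures without TGF-β1, and the TGF-β1 group was 3 cultures that received TGF-β1 from day 3. All 6 cultures were collected on day 7. The treatment text places both groups in medium lacking noggin, a BMP antagonist, and A83-01, an inhibitor of the type I receptors for TGF-β, activin and nodal. The array methods give no TGF-β1 concentration, and neither the age nor the number of donor mice is stated in the sources used here. Each culture was measured on 1 single-dye Agilent array, and values below are quantile-normalised log2 signals unless another scale is named.

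Activins are secreted dimers of β subunits, encoded by Inhba (βA) and Inhbb (βB). Pairing of a β subunit with the α subunit encoded by Inha gives an inhibin, which antagonises activin. Activins bind ACVR2A or ACVR2B, recruit a type I receptor and signal through SMAD2 and SMAD3, the same SMADs that TGF-β uses, whereas follistatin (Fst) and follistatin-like 3 (Fstl3) bind activin outside the cell and block its access to receptors. GDF11 also uses the activin type II receptors, while GDF15 is a distant family member that signals through GFRAL, a receptor of the hindbrain, and is known as a stress-induced cytokine.

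One array has to be considered before the results. Leaving out TGF-β1 replicate 3 raised the number of genes called, meaning genes with a Benjamini-Hochberg adjusted p from limma under 0.05, from 292 to 2202, whereas leaving out any other array gave 56 to 310. This array lay in slide row 2 with control replicate 3, and the other 4 arrays lay in slide row 1. Values without it or within each slide row are therefore given beside the members' results. The epithelial identity of the cultures was checked with 8 markers, all of which were detected and none of which was called, with summed linear signals of 316000 to 341000 in control and 292000 to 400000 in TGF-β1 cultures. The largest epithelial differences were those of Elf3, an epithelial transcription factor (log2 difference -0.94, limma adjusted p = 0.152), and Epcam, an epithelial adhesion molecule (0.82, adjusted p = 0.115). Both passed without TGF-β1 replicate 3 (adjusted p = 0.04 and 0.0179). Among 10 airway and alveolar markers 7 were tested, and Foxj1, the regulator of ciliated cells, was called higher (1.47, adjusted p = 0.00239). Of the others, named after their values were seen, the club cell marker Scgb1a1 had the largest difference (-2.27, adjusted p = 0.158), with groups that did not overlap, at 7.77 to 10.83 in control and 7.00 to 7.57 in TGF-β1 cultures. The basal cell keratin Krt5 differed by 1.37 (adjusted p = 0.178), with groups that overlapped. Cav1 (-0.33), Ager (0.03), Hopx (-0.48) and Trp63 (0.18) were also not called (limma adjusted p = 0.377, 0.964, 0.368 and 0.332). Muc5ac, Muc5b and Sftpc were not well above background on any array.

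Markers of other cell types were also followed. Of 9 fibroblast markers, Col3a1, Pdgfrb, Lum and Tcf21 were not well above background on any array. Col1a1 and Col1a2, the collagen type I chains, had no control array on which they stood well above background and did so on all 3 TGF-β1 arrays, at least 2.16-fold and at least 2.38-fold higher (limma adjusted p = 0.0131 and 0.0162). With normexp background correction, which adds an offset to dim spots, their log2 differences were only 0.47 and 0.43, under these bounds, and were not called (adjusted p = 0.0604 and 0.0857). Both calls were also lost without control replicate 1 (adjusted p = 0.0589 and 0.0597), control replicate 2 (0.0627 and 0.0754) or TGF-β1 replicate 2 (0.0644 and 0.0727). Testing required a signal well above background on at least 3 arrays, which Col1a1 and Col1a2 met through the TGF-β1 arrays alone. Their p-values therefore rest on a selection made in the group where they were higher. Without this filter neither collagen gene was called (limma adjusted p = 0.0698 and 0.0805). Thy1 and Dcn, named after their values were seen, were not called. Thy1 gave 4.14, 4.67 and 4.23 in control and 8.19, 7.65 and 4.60 in TGF-β1 cultures (difference 2.47, adjusted p = 0.176), and Dcn gave 8.98, 8.81 and 8.96 against 11.10, 9.68 and 8.98 (1.00, adjusted p = 0.273). In both genes TGF-β1 replicate 3 was the lowest of its group, near the controls. The summed signal of the fibroblast list, in which Dcn was the brightest gene on every array, was 580 to 649 in control and 706 to 2710 in TGF-β1 cultures. That of 8 leukocyte markers was 10600 to 12300 and 13500 to 14800, with Ptprc, Adgre1 and Lyz2 not well above background on any array, and neither Cd68 (0.90, adjusted p = 0.147) nor Itgam (0.43, adjusted p = 0.134) called. Csf1r (0.01, adjusted p = 0.984) and Cd3e (-0.24, adjusted p = 0.395), named after their values were seen, were well above background on all 6 arrays and not called. The summed signal of 6 endothelial markers was 82.5 to 98.4 and 89.3 to 103, with 5 of them, including Cdh5 and Kdr, below this limit everywhere and Pecam1 not called (0.13, adjusted p = 0.505). The part of these cell types in the results below was not tested, and in such bulk RNA fewer cells of a type cannot be told apart from less RNA per cell.

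Promoter sequence is shown for Fstl3, the member called under most alternatives, and for Inhba, the activin subunit with the widest spread. The windows below are the 250 bases before the RefSeq start in GRCm38.p6, read 5′ to 3′ on the plus strand in both cases. Fstl3 lay at chr10:79777024-79777273 and Inhba at chr13:16011601-16011850. Capitals mark the letters CAGAC or TATAAA on either strand, the first being the short sequence that SMAD proteins recognise and the second a TATA box.
Fstl3: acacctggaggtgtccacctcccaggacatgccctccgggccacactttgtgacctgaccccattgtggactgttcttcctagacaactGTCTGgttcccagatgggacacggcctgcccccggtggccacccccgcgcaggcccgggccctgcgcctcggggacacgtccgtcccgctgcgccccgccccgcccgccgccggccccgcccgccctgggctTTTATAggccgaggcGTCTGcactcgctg
Inhba: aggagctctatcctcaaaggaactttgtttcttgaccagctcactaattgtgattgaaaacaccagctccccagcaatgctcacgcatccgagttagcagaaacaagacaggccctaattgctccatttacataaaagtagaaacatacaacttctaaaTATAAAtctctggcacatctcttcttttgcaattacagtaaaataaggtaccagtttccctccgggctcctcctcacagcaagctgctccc
The Fstl3 window held CAGAC on the reverse strand at -161 to -157 and at -14 to -10, and TATAAA on the reverse strand at -29 to -24. The Inhba window held TATAAA on the forward strand at -91 to -86 and no CAGAC. In windows that also took in the first 50 transcribed bases, CAGAC occurred in 6 of 9 windows of 8 member genes (Gdf15 had more than 1 window, and Fst was not in the promoter table used) and in 49.6% of 32851 RefSeq windows. TATAAA occurred in 3 of the 9 and in 13.6% of all windows. The SMAD palindrome GTCTAGAC, which does not contain CAGAC, and the AP-1 element TGANTCA occurred in 0 of the 9, against 0.213% and 7.81% of all windows. These are letter matches only.

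The activin antagonists rose in the TGF-β1 cultures and no other member passed the test when all 6 arrays were given equal weight. The 2 members called, of 9, were both higher, where 2.04% of all genes tested were called in either direction and 1.63% were called higher. Without TGF-β1 replicate 3 there were 5 members called (Fst, Fstl3, Inha, Inhba and Inhbb), in a fit that called 15.4% of all genes, and in slide row 1 alone there were 5 (Acvr2b in place of Inha), where 26.8% of all genes were called. With weights estimated for each array 6 members and 34.7% of all genes were called, and by the methods' t-test at an unadjusted p under 0.05 the shares were 4 members and 17.1%. By the unadjusted limma p under 0.05, 6 of 9 members were higher and 0 were lower, where 11.4% and 10.7% of all genes were. Groups did not overlap for 5 members that were higher and 1 that was lower, where 12.9% and 13.5% of all genes had groups that did not overlap in that direction. The median log2 difference was 0.39 over the 9 members and -0.03 over all genes tested.

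**Figure D1:**
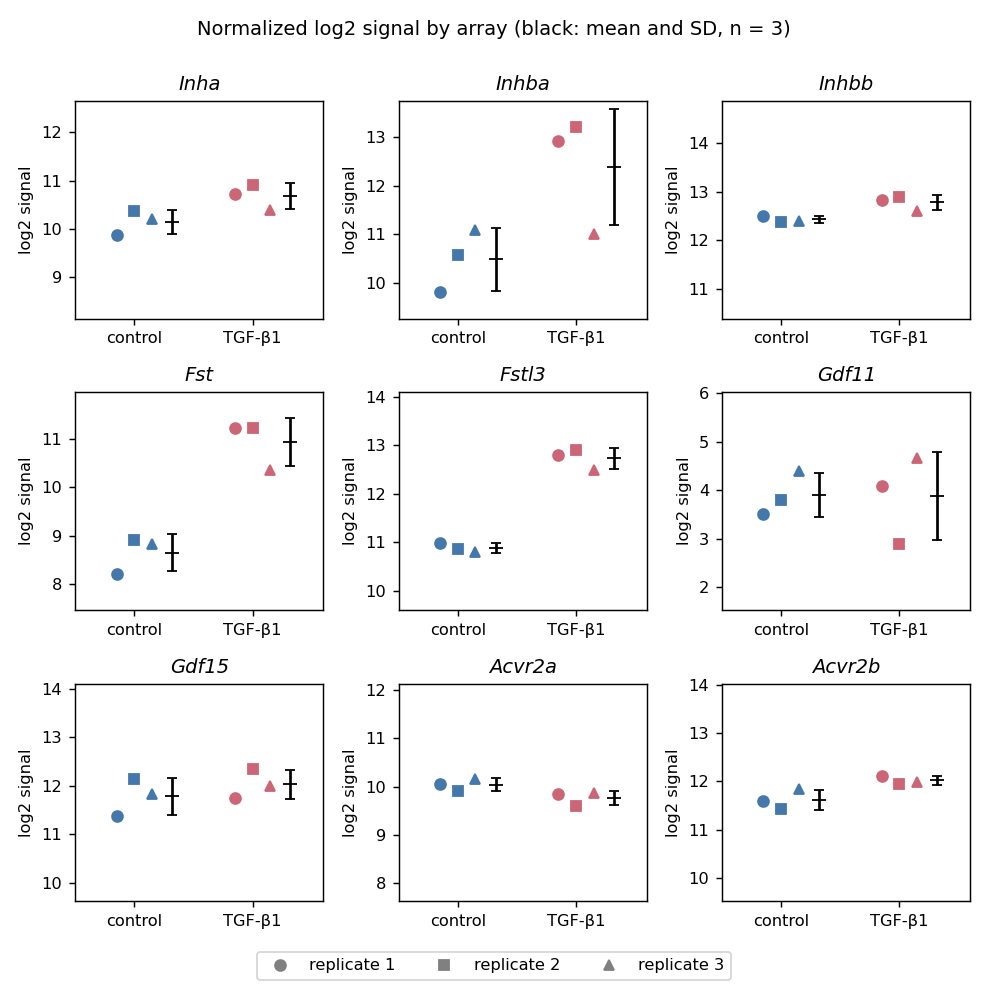
Quantile-normalised log2 signal of the 9 member genes on each array, control and TGF-β1, with replicates 1 to 3 as separate symbols and the mean and SD (n = 3) in black; every panel spans the same number of log2 units. Fst and Fstl3 show 2 separate clusters, and the Inhba value of TGF-β1 replicate 3 (11.01) lies among the control values.

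Fstl3, a secreted and nuclear glycoprotein that binds activin, gave 10.99, 10.87 and 10.79 in control replicates 1 to 3 and 12.80, 12.91 and 12.49 in TGF-β1 replicates 1 to 3. The groups were separated by a gap of 1.50, with TGF-β1 replicate 3 the lowest of its group. The difference was 1.85 on the log2 scale (SE 0.14, 95% interval 1.51 to 2.18), a 3.60-fold higher signal with an adjusted p of 0.00316 by limma. It was 1.93 within slide row 1 and 1.69 within slide row 2, and 1.97 (adjusted p = 0.00184) without TGF-β1 replicate 3. Every array could be left out without losing the call, at adjusted p-values up to 0.0272. The spot was 50.7 to 63.8 times its local background in control and 173 to 222 times in TGF-β1 arrays.

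Fst, the classical activin-binding protein, gave 8.21, 8.91 and 8.83 in control cultures and 11.22, 11.22 and 10.35 in TGF-β1 cultures. All TGF-β1 arrays were above all control arrays, by a gap of 1.44, and TGF-β1 replicate 3 was again the lowest of its group. The difference was 2.28 (SE 0.29, 95% interval 1.58 to 2.98), or 4.86-fold, with a limma adjusted p of 0.0174, the largest among the members over all 6 arrays. It was 2.66 in slide row 1 and 1.52 in slide row 2. Its size stayed between 2.06 and 2.57 with any array left out, but the adjusted p rose above 0.05 without control replicate 1 (0.0589), control replicate 2 (0.0591), TGF-β1 replicate 1 (0.0819) or TGF-β1 replicate 2 (0.0732). Without TGF-β1 replicate 3 it was 0.00458. The exact two-sided permutation test gave p = 0.1 for Fst and for Fstl3, the smallest that 3 against 3 arrays allow.

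Among the ligand subunits Inhba had the largest difference, and its replicates did not show it alike. Inhba, which encodes the subunit of activin A, gave 9.80, 10.56 and 11.09 in control cultures and 12.92, 13.21 and 11.01 in TGF-β1 cultures. TGF-β1 replicates 1 and 2 stood above every control, whereas replicate 3 lay just under control replicate 3, so that the groups overlapped. The mean was 10.48 ± 0.65 (SD, n = 3) in control and 12.38 ± 1.20 (SD, n = 3) in TGF-β1 cultures. The difference of 1.90 (SE 0.61, 95% interval 0.45 to 3.34) had a limma adjusted p of 0.155 and was not called. It was 2.88 in slide row 1 and -0.08 in slide row 2. Without TGF-β1 replicate 3 it was 2.58 and was called (adjusted p = 0.013). Its spot was bright on every array, at 27.5 to 59.2 times the local background in control and 54.0 to 236 times in TGF-β1 arrays. The fibroblast marker Thy1, given above, was likewise high in TGF-β1 replicates 1 and 2 and not in replicate 3. So was the basal cell keratin Krt5, at 15.17, 14.45 and 13.23, against 12.68, 12.64 and 13.43 in control. Col1a1 (5.60, 5.11 and 4.55) and Col1a2 (4.89, 5.48 and 5.38) stayed above every control value in TGF-β1 replicate 3. For Pdgfra the groups overlapped. The part of these markers in the Inhba result was not tested.

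Inhbb, which encodes the subunit of activin B, gave 12.50, 12.37 and 12.40 in control and 12.84, 12.89 and 12.61 in TGF-β1 cultures. The groups lay 0.11 apart and did not overlap. Its difference was 0.35 (SE 0.12, 95% interval 0.08 to 0.63), or 1.28-fold, with a limma adjusted p of 0.162. Without TGF-β1 replicate 3 it was 0.44 and passed at an adjusted p of 0.0438, and it was 0.43 in slide row 1 and 0.21 in slide row 2. Inha, the inhibin α subunit, gave 9.88, 10.37 and 10.21 in control and 10.73, 10.92 and 10.39 in TGF-β1 cultures. Only 0.02 separated the lowest TGF-β1 value from the highest control value. The difference was 0.53 (SE 0.19, 95% interval 0.09 to 0.97; limma adjusted p = 0.177), with 0.70 in slide row 1 and 0.18 in slide row 2. It passed narrowly when TGF-β1 replicate 3 was left out (0.67, adjusted p = 0.0498).

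**Figure D2:**
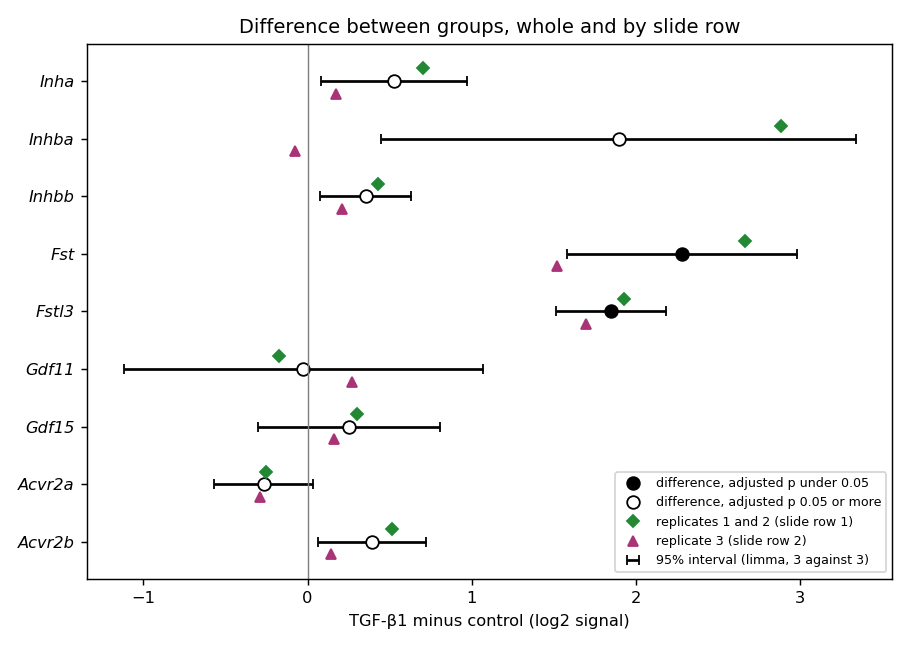
Difference between TGF-β1 and control (log2 signal) for each member gene: circles give the value over all 6 arrays with the 95% limma interval, filled where the adjusted p was under 0.05, diamonds the value within slide row 1 (replicates 1 and 2) and triangles within slide row 2 (replicate 3). Fst and Fstl3 are filled, and Inhba has its diamond at 2.88 and its triangle at -0.08.

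Neither type II receptor was called, and their differences had opposite signs. Acvr2b gave 11.60, 11.42 and 11.84 in control and 12.12, 11.94 and 11.99 in TGF-β1 cultures. Every TGF-β1 value was above every control value, by 0.10. The difference was 0.39 (SE 0.14, 95% interval 0.07 to 0.72; limma adjusted p = 0.176), and it was 0.52 in slide row 1 (adjusted p = 0.0424 in a fit of that row alone) and 0.14 in slide row 2. Without TGF-β1 replicate 3 alone the Acvr2b difference was 0.41 and was not called (adjusted p = 0.123). A second Acvr2b probe, designed to a predicted transcript, differed by 0.17 (95% interval -0.21 to 0.55). Acvr2a gave 10.06, 9.90 and 10.16 in control and 9.85, 9.60 and 9.87 in TGF-β1 cultures. It was the member with every TGF-β1 value below every control value, by a gap of 0.03. The difference was -0.27 (SE 0.13, 95% interval -0.57 to 0.03; limma adjusted p = 0.265), equal to -0.26 in slide row 1 and -0.29 in slide row 2. The second Acvr2a probe was also lower, by -0.51 (95% interval -0.90 to -0.12), with a limma adjusted p over all probes of 0.13.

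Neither growth differentiation factor was called. Gdf15 gave 11.37, 12.13 and 11.83 in control and 11.75, 12.35 and 12.00 in TGF-β1 cultures. The ranges overlapped, between 11.75 and 12.13. The difference was 0.25 (SE 0.23, 95% interval -0.30 to 0.81; limma adjusted p = 0.53), an interval whose upper end lies below a 2-fold change. It was 0.30 in slide row 1, 0.16 in slide row 2 and 0.27 without TGF-β1 replicate 3. With other arrays left out it ran from 0.05 (without control replicate 1) to 0.43 (without control replicate 2). Gdf11 gave 3.51, 3.80 and 4.40 in control and 4.08, 2.88 and 4.67 in TGF-β1 cultures. Its probe was well above background on 1 of 3 control and 2 of 3 TGF-β1 arrays, with spots only 1.61 to 2.18 times the local background. The difference of -0.03 (SE 0.46, 95% interval -1.12 to 1.07) therefore left a change of either sign undetermined, and it was 0.22 without control replicate 3. Leaving out TGF-β1 replicate 2 gave 0.47 and leaving out TGF-β1 replicate 3 gave -0.42. It was -0.17 in slide row 1 and 0.27 in slide row 2.

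**Figure D3:**
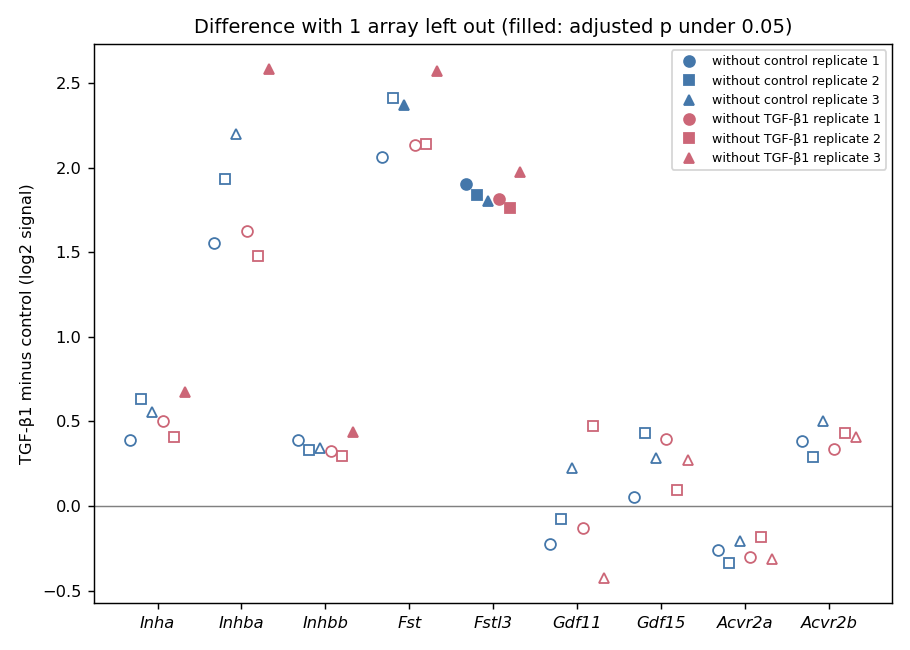
Difference between TGF-β1 and control (log2 signal) for each member gene after 1 array was left out, 1 symbol per array left out, filled where the limma adjusted p was under 0.05. Fstl3 is filled in all 6 cases at 1.76 to 1.97, Fst in 2 of 6, and Inhba moves between 1.48 and 2.58 and is filled only without TGF-β1 replicate 3.

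To set the change of a ligand against that of an antagonist, the log2 signal of Fst or Fstl3 was subtracted from that of Inhbb or Inhba on the same array, and the control mean was set to 0. This compares changes and not levels, because the brightness of different probes cannot be compared, and no test was applied. For Inhbb minus Fstl3 the TGF-β1 arrays gave -1.50, -1.56 and -1.42, where the control SD was 0.06. For Inhbb minus Fst they gave -2.16, -2.10 and -1.52, where the control SD was 0.45. In both cases all 3 TGF-β1 arrays were below all 3 control arrays, so that in each TGF-β1 culture the antagonist signal stood further above its control mean than Inhbb did. For Inhba the same differences overlapped between groups. Inhba minus Fstl3 was 0.52, 0.70 and -1.08, and Inhba minus Fst was -0.14, 0.16 and -1.18. TGF-β1 replicates 1 and 2 lay within 0.70 of the control mean in both Inhba pairs, and TGF-β1 replicate 3 lay below every control array in both.

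**Figure D4:**
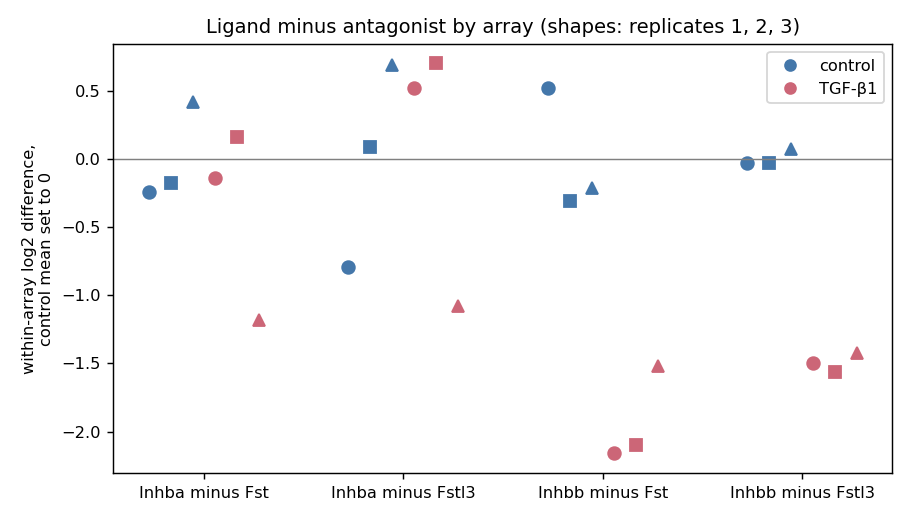
Within-array log2 difference of ligand minus antagonist, with the control mean set to 0, for 4 pairs; each symbol is 1 array, coloured by group and shaped by replicate. Both Inhbb pairs separate the groups, at -1.93 ± 0.36 for Fst and -1.49 ± 0.07 for Fstl3 (mean ± SD, n = 3 TGF-β1 arrays), and both Inhba pairs overlap, with TGF-β1 replicate 3 below the controls at -1.18 and -1.08.

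The genes whose profiles over the 6 arrays were most like those of Fstl3, Fst and Inhba were sought among 13509 other genes that were well above background on every array, by the root mean square difference of log2 profiles each centred on its own mean. For Fstl3 these were Nuak1, an AMPK-related kinase (0.137), Ptprz1, a receptor-type tyrosine phosphatase (0.155), and Myl7, a myosin light chain (0.188). For Fst they included Kif26b, a kinesin-family protein (0.081), and Ccn2, connective tissue growth factor (0.181). For Inhba, with its low value in TGF-β1 replicate 3, they were Cxcl10, an interferon-induced chemokine (0.13), Ccdc80, an extracellular matrix protein (0.189), and Ctse, the protease cathepsin E (0.209). Choosing genes by profile holds their log2 differences close to those of the members, so these values are a description only. They were 1.73, 2.11 and 1.85 for the Fstl3 group, 2.22 and 2.10 for the Fst group and 1.89, 1.85 and 1.90 for the Inhba group. No gene of the Inhba group was called (limma adjusted p = 0.145, 0.136 and 0.135).

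The remaining genes of the pathway were taken from 5 lists with 46 genes in all. Of 15 other activin-type and GDF ligands, 9 were not well above background on any array, 5 were tested and 0 were called by limma (unadjusted p under 0.05 for 1 gene, and 1 gene by the methods' t-test, unadjusted). Their median difference was -0.28, with Nodal at -0.37 (adjusted p = 0.38) and Gdf3 at -0.33 (adjusted p = 0.154). Inhbe, the βE subunit, was well above background on 1 control and 1 TGF-β1 array and was not tested. Of 11 other extracellular inhibitors and co-receptors, 5 were tested and 0 were called by limma (unadjusted p under 0.05 for 1 gene, and 0 by the methods' t-test). Bambi, a pseudoreceptor that dampens TGF-β family signalling, differed by 0.55 (adjusted p = 0.261), and Tdgf1, the co-receptor Cripto, by 0.40 (adjusted p = 0.197). The Tdgf1 difference was 0.54 without TGF-β1 replicate 3 (adjusted p = 0.0359) and 0.07 when the probes of the gene were averaged (adjusted p = 0.751). Fst and Fstl3 were thus the antagonists called among the members and this list.

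All 8 type I and partner type II receptors were tested and 0 were called by limma (unadjusted p under 0.05 for 3 genes, all higher, and 2 genes by the methods' t-test, unadjusted). Their median difference was 0.26. Bmpr2, the BMP type II receptor, differed by 0.69 (adjusted p = 0.154) and Acvr1, a type I receptor for BMPs and activins, by 0.62 (adjusted p = 0.117), and both passed without TGF-β1 replicate 3 (adjusted p = 0.0403 and 0.0229). All 5 genes of the list downstream of the receptors were tested: Smad2, Smad3, Smad4, Smad7 and Foxh1, which is not a SMAD. By limma 0 were called (unadjusted p under 0.05 for 1 gene, and 2 genes by the methods' t-test, unadjusted). Smad7, the inhibitory SMAD, gave 10.61, 10.29 and 10.92 in control and 11.35, 11.37 and 11.57 in TGF-β1 cultures. Its groups did not overlap, and its difference of 0.82 (SE 0.18) had a limma adjusted p of 0.0747, and of 0.0445 without control replicate 3. Smad2, a receptor-activated SMAD, differed by -0.21 (adjusted p = 0.295), and by -0.06 when the probes of the gene were averaged (adjusted p = 0.711).

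Of 7 genes for precursor processing and activation, 6 were tested and 1 was called, with a median difference of 0.46. At an unadjusted limma p under 0.05 there were 3 higher and 1 lower, and 4 genes passed the methods' t-test, unadjusted. Bmp1 (1.20, adjusted p = 0.0697) and Tll1 (-0.67, adjusted p = 0.138), named after their values were seen, were not called. The gene called was Furin, the proprotein convertase that cleaves TGF-β family precursors, activin included. Furin gave 13.36, 13.39 and 13.80 in control and 14.31, 14.43 and 14.27 in TGF-β1 cultures, so that every TGF-β1 value was above every control value. The difference was 0.82 (SE 0.15, limma adjusted p = 0.0475). The call was lost without control replicate 1 (adjusted p = 0.173), control replicate 2 (0.166), TGF-β1 replicate 1 (0.178) or TGF-β1 replicate 2 (0.178), and also after scaling arrays by their 75th percentile (0.61, adjusted p = 0.0833).

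**Figure D5:**
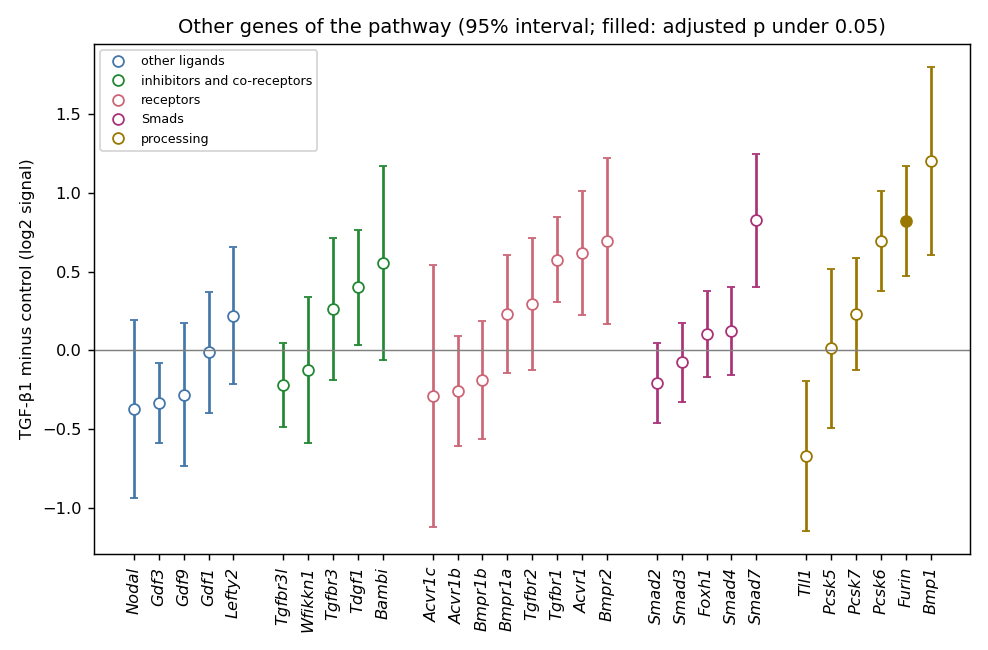
Difference between TGF-β1 and control (log2 signal, with 95% limma interval) for the tested genes of the 5 pathway lists, coloured by list and filled where the adjusted p was under 0.05. Furin, at 0.82, is the filled symbol.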

How the data were processed

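RNA of 6 cultures was hybridised to 1-colour Agilent SurePrint arrays. The files the authors deposited hold spot intensity on a linear scale, background-subtracted by Agilent Feature Extraction 11.0.1.1, with no normalisation between arrays. Groups followed the sample titles; the methods call replicates biological. All arrays shared 1 slide and 1 scan time.

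Control spots and marked outlier spots (74 to 112 per array) were removed and spots of a probe averaged. Log2 intensities were quantile-normalised. Genes, named through RefSeq (GRCm38.p6), were tested if a probe was well above background on at least 3 arrays, using the brightest probe. On each array 55.0% to 59.0% of probes passed and 0 were saturated; 3 arrays per group limit precision. Groups were compared by limma 3.58.1 in R 4.3.3, with Benjamini-Hochberg adjustment over all genes, checked on simulated data. Alternatives covered scaling, background, filter, probe choice, variance model, pairing, slide row and left-out arrays. The methods' t-test was run on the same values.

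Members and lists were chosen with earlier results of these data known. Named genes were the members, called list genes or otherwise the 2 with the largest change, and 3 nearest profiles for each of 3 members; 1 of these profiles is not reported here.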

Additional observations from a re-analysis of the deposited data

How the results depend on the processing

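The count of members called, against 2, was 1 without the filter on dim probes and with the replicate number as a block, 0 by the methods' t-test after Benjamini-Hochberg adjustment (4 unadjusted), 6 with array weights and 5 in slide row 1 only, an alternative chosen after seeing the data; it ran from 1 to 5 with 1 array left out. The same settings gave, of all genes against 292, 74 without the filter, 103 with the block, 9 and 2451 by the t-test, 4982 with array weights, 3846 in slide row 1, 507 with a trended and robust variance prior, and 56 to 2202 with 1 array left out. For the pathway lists, against 1, they gave 0 without the filter, 0 with the block, 0 and 9 by the t-test, 15 with array weights, 14 in slide row 1, 5 with the variance prior and 0 to 7 with 1 array left out, and further 0 with 75th percentile scaling, 5 with normexp, 2 with detection on all 6 arrays and 3 with slide row as a term. The share of calls that were higher was 80.1%, but 48.3% with array weights, 53.2% by the unadjusted t-test, 51.6% in slide row 1, 63.9% without control replicate 3 and 59.1% without TGF-β1 replicate 3; it was 88.6%, 88.1%, 88.1% and 87.5% without the other arrays.

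Fstl3 kept its call in 17 of 18 alternatives (the exception was the methods' t-test after adjustment) and Fst in 11 of 18. Gdf11 changed sign with 75th percentile scaling (0.13), normexp (0.023) and without control replicate 3 (0.22) or TGF-β1 replicate 2 (0.47), ranging from -0.423 to 0.47 with 1 array left out, and Itgam with the mean of its probes (-0.064). In 11 of 11 alternatives both Inhbb minus antagonist differences kept their sign and moved by less than the larger SD of the groups. The Inhba pairs had no settled sign: Inhba minus Fst, -0.386, was 0.035 with array weights, 0.009 without TGF-β1 replicate 3 and 0.219 in slide row 1, and Inhba minus Fstl3, 0.046, was 0.956 in slide row 1 and ran from -0.348 to 0.609 with 1 array left out. The cause of these shifts was not tested. The groups share replicate numbers, but the methods name no pairing, so the numbers were not taken as pairs. Deviations from the group means correlated at r = -0.01, 0.33 and -0.05 for same-numbered arrays. For the other combinations of a control and a TGF-β1 array r ran from -0.37 to 0.25. These values cannot decide whether cultures were paired. Under the block the limma adjusted p was 0.0215 for Fstl3 and 0.0673 for Fst, so that the Fst call was lost.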

Other observations

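Gdf15 is a known target of the integrated stress response and of p53, so 10 genes of each were read beside it. In the stress response list 1 gene was called, and at an unadjusted p under 0.05 there were 1 higher and 2 lower. The called gene, Ddit4, an inhibitor of mTORC1, gave 14.51, 14.43 and 14.52 in control and 15.32, 15.28 and 15.02 in TGF-β1 cultures, a log2 difference of 0.73 (SE 0.12, limma adjusted p = 0.0377). The call was lost without control replicate 1 (adjusted p = 0.142), 2 (0.142) or 3 (0.0644), without TGF-β1 replicate 1 (0.17) or 2 (0.16), and with 75th percentile scaling (0.0814). The 2 lower genes, named after their values were seen, were Ddit3, the transcription factor CHOP (-0.49, adjusted p = 0.105), and Asns, asparagine synthetase (-0.51, adjusted p = 0.125), neither of them called and both without overlap between groups. The median of the list was 0.08. In the p53 list 0 genes were called by limma, with 0 at an unadjusted p under 0.05 and 0 by the methods' t-test, and the median was 0.09. Mdm2, the ubiquitin ligase of p53, differed by 0.40 (adjusted p = 0.376). It was 0.68 without TGF-β1 replicate 3 (adjusted p = 0.0453), 0.19 without TGF-β1 replicate 2 (0.755) and 0.16 with 75th percentile scaling (0.681). Trp53inp1, a p53-induced stress protein, differed by 0.28 (adjusted p = 0.368).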
